A study of Drosophila melanogaster with 65 samples.

Results

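The 10 genes described here encode proteins that license, unwind, feed and clamp the replication fork of Drosophila melanogaster, and were taken by name from a list of 16369 genes counted in every long RNA library. They are Mcm2, Mcm3, Mcm5, Mcm6, Mcm7, Orc1, dup, RnrS, RnrL and PCNA, and all 10 passed the filter on low counts in each comparison. Long RNA was sequenced in 24 libraries. In OSS cells, a cell line of somatic cells from the fly ovary that holds no germ line, 3 libraries each followed siRNA against traffic jam (siTj), piwi (siPiwi), cubitus interruptus (siCi) or GFP, the control (siGFP). In whole ovaries, 6 fly lines named FlamBG, FlamKG, FITS, FPSE1, FPSE2A and FPSE2B each gave 1 mutant and 1 wild-type (WT) library. The series text ties the mutant strains to new deletions at the promoter of flamenco (flam), a locus that makes piRNA precursors in somatic ovary cells, and what each line and its WT carry, their age and the number of animals pooled are not given in the sources used here.

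Before S phase, the origin recognition complex, whose ATPase subunit is Orc1, and double parked (dup, the fly Cdt1) load a ring of Mcm proteins onto DNA, and that ring later becomes the core of the replicative helicase. The fly Mcm4, called dpa, completes the ring with Mcm2, Mcm3, Mcm5, Mcm6 and Mcm7. Ribonucleotide reductase, made of a large subunit (RnrL) and a small subunit (RnrS), supplies deoxyribonucleotides, and PCNA is the sliding clamp that holds polymerases on the template. In the fly ovary, germ cells and follicle cells divide in the germarium and early egg chambers, and nurse cells and follicle cells later copy their genomes without dividing, so these genes are used by both lineages.

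The 10 loci lie apart, and each had the same bounds in all 24 tables and in RefSeq Release 6. Mcm2 lies at chr3R:8264970-8267924, Mcm5 at chr3R:10788524-10791150, Mcm3 at chrX:5323855-5326738, Mcm6 at chrX:6674387-6677176 and Mcm7 at chr3L:8891596-8894310, all on the plus strand. RnrL lies on the minus strand at chr2L:10325026-10327943, and Orc1, dup, RnrS and PCNA lie on the minus strand of chromosome arm 2R. Levels are unique sense reads over the whole gene in each 1000000 reads (CPM), scaled by TMM within OSS cells or within ovaries. Libraries held 9075806 to 54359738 unique sense reads in OSS cells and 9676965 to 81892058 in ovaries, and no member had fewer than 279 reads in any library. Whether the libraries of a group came from separate cultures or animals is not stated, and the p-values rest on their spread alone, part of which may be technical.

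In ovaries, all 10 replication genes fell in the mutants of FlamBG and FlamKG, with log2 changes of −2.95 to −1.78, while 0 of 10 passed the test in the other 4 lines. Among all 11155 genes tested, 31.4% were called lower and 24.1% higher in FlamBG and FlamKG, and 0% in the other 4 lines. The lines were grouped after their values were seen. The licensing genes Orc1 and dup had the most negative changes. Orc1, which marks origins, stood at 26.2 CPM in the FlamBG mutant and 237.9 CPM in its WT, and at 26.5 CPM in the FlamKG mutant and 175.5 CPM in its WT. Its level in the other lines was 85.8 CPM in mutant and 78.1 CPM in WT ovaries of FITS, 226.2 CPM in mutant and 94.4 CPM in WT ovaries of FPSE1, 143.3 CPM in mutant and 167.8 CPM in WT ovaries of FPSE2A, and 140.1 CPM in mutant and 185.7 CPM in WT ovaries of FPSE2B. The 2 lowest Orc1 values of the 12 ovary libraries were thus the FlamBG and FlamKG mutants. The fitted change over those 2 lines was −2.95 (SE 0.41, adjusted p = 0.00195, edgeR quasi-likelihood test).

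dup, whose protein brings the Mcm ring to origins, stood at 32.6 CPM in the FlamBG mutant and 165.8 CPM in its WT, and at 39.2 CPM in the FlamKG mutant and 237.7 CPM in its WT. In the other 4 lines it spanned 113.6 to 277.7 CPM in mutants and 123.9 to 217.4 CPM in WT. The FlamBG and FlamKG mutants again lay below every other ovary library, and the fitted change was −2.48 (SE 0.37, adjusted p = 0.00231, edgeR).

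Of the helicase genes, Mcm7 stood at 25.1 CPM in the FlamBG mutant and 99.5 CPM in its WT, and at 31.7 CPM in the FlamKG mutant and 157.6 CPM in its WT. Mcm2 stood at 24.1 CPM in the FlamBG mutant and 95.1 CPM in its WT, and at 34.4 CPM in the FlamKG mutant and 140.6 CPM in its WT. Both were lowest of all ovary libraries in these mutants. In these 2 lines the log2 change was −2.43 (SE 0.30) for Mcm5, −2.15 (SE 0.24) for Mcm7, −2.14 (SE 0.27) for Mcm3, −2.004 (SE 0.20) for Mcm2 and −1.78 (SE 0.18) for Mcm6, with adjusted p in edgeR of 0.000893 for Mcm2 to 0.0016 for Mcm3. Mcm6 in the mutants kept 28.7% of its WT level in FlamBG and 29.5% in FlamKG.

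Both subunits of ribonucleotide reductase fell. RnrL stood at 76.3 CPM in the FlamBG mutant and 353.8 CPM in its WT, and at 64.5 CPM in the FlamKG mutant and 368.4 CPM in its WT, a change of −2.36 (SE 0.26, adjusted p = 0.00106, edgeR). RnrS stood at 266.6 CPM in the FlamBG mutant and 1436 CPM in its WT, and at 100.3 CPM in the FlamKG mutant and 471.8 CPM in its WT, a change of −2.33 (SE 0.28, adjusted p = 0.00143, edgeR). The RnrS level in the FlamBG WT library was far above the 336.2 to 721.0 CPM of the other 5 WT libraries. PCNA, the clamp, was the most even gene among WT ovaries at 193.7 to 249.8 CPM. It stood at 62.0 CPM in the FlamBG mutant and 49.8 CPM in the FlamKG mutant, against 182.7 to 251.8 CPM in the other 4 mutants, and its change in FlamBG and FlamKG was −1.82 (SE 0.20, adjusted p = 0.00107, edgeR).

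**Figure D1:**
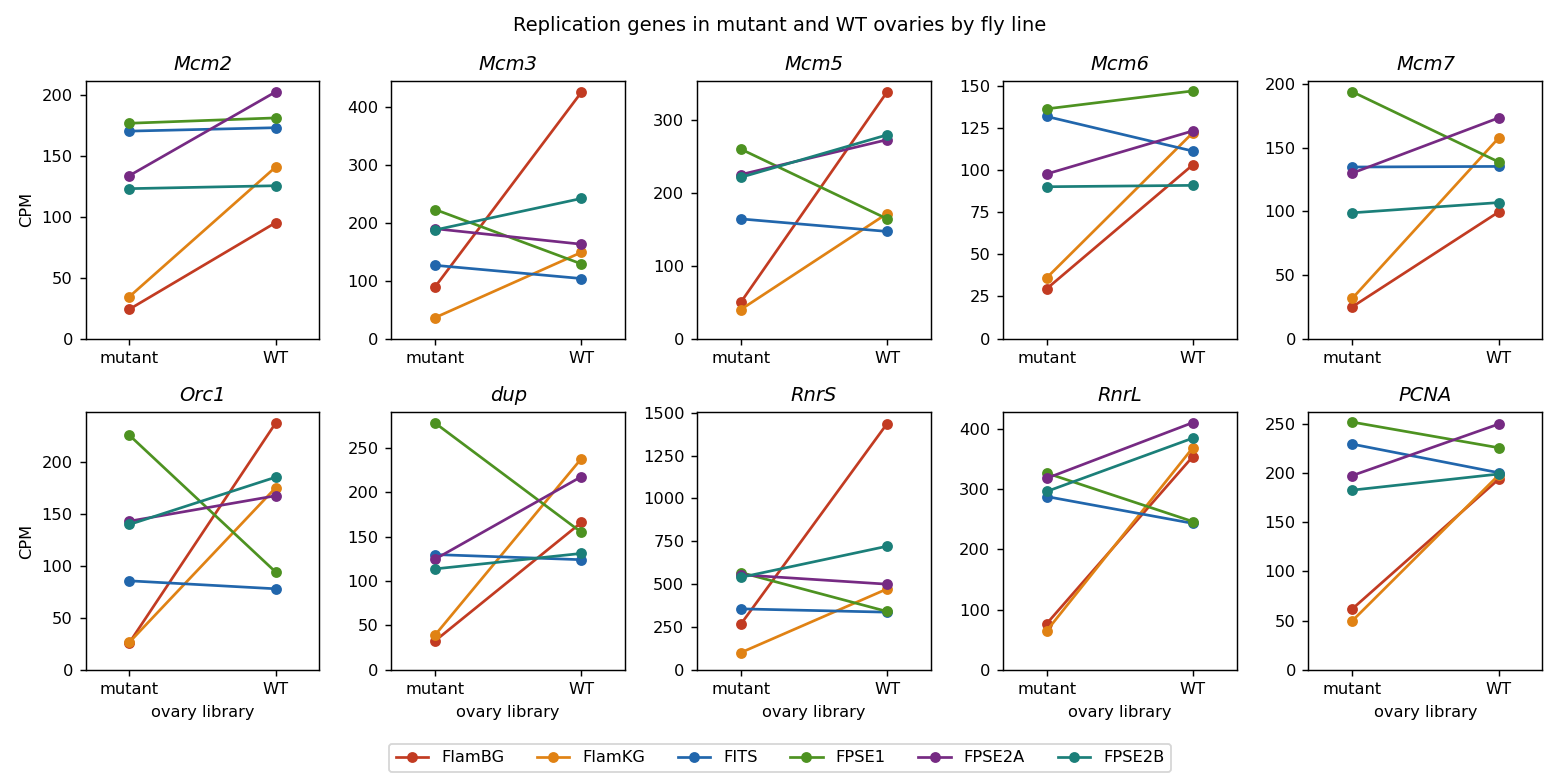
CPM of each gene (vertical axes, from 0) in the mutant and the WT ovary library of each fly line, joined by a line, 1 library a point. In FlamBG and FlamKG every mutant point lies below its WT point, as for PCNA at 62.0 and 49.8 CPM in mutants and 193.7 and 197.9 CPM in WT, while in the other 4 lines the mutant points lie above or below WT depending on line and gene, as for Orc1 in FPSE1 at 226.2 CPM in the mutant and 94.4 CPM in WT.

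The difference between the lines was tested in the same fit. The mutant effect in FlamBG and FlamKG was lower than that in the other 4 lines for 10 of 10 genes, with log2 differences of −3.14 (Orc1) to −1.73 (Mcm6) and adjusted p of 0.00294 for Mcm6 to 0.00688 for dup (edgeR). In FlamBG and FlamKG the median change of the 10 genes was −2.24, against −0.17 over all 11155 genes tested. In the other 4 lines the median of the 10 genes was −0.02 and their changes ran from −0.17 (Mcm2) to 0.23 (Mcm3), against a median of 0.02 over all genes. The grouping of lines follows their names but was chosen after their values were seen, so it describes these libraries. Each line and genotype had 1 library, so within a line mutation and library cannot be told apart.

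Many genes differed in both directions. Of all genes tested, 31.4% were called lower and 24.1% higher in the mutants of FlamBG and FlamKG, and 23.4% had a lower effect there than in the other lines. With the 6 lines pooled and the line as a block, 0 of 10 genes and 0 of 11155 genes were called (0%) in edgeR, although the unadjusted p of 1242 genes was under 0.05 and 357 were called by DESeq2. Without FlamBG and FlamKG the median of the 10 was −0.04. The 10 pooled changes ran from −0.82 (dup) to −0.53 (Mcm3), with a median of −0.72. In the other 4 lines 0 genes (0%) were called in edgeR, where 610 had an unadjusted p below 0.05, and 53 in DESeq2.

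Within those 4 lines the mutants did not share a direction. In FPSE1, 8 of 10 genes stood higher in the mutant, from Mcm6 at 92.8% of its WT level to Orc1 at 239.8%, with a median of 148.9%. In FITS the mutant kept 98.4% to 122.0% of the WT level. In FPSE2A it kept 57.3% (dup) to 116.4% (Mcm3), with 8 of 10 lower, and in FPSE2B 74.8% to 99.1%, with 10 of 10 lower. In FlamBG the range was 11.0% to 32.0% and in FlamKG 15.1% to 29.5%. Levels of flam itself stood at 51.2 CPM in the FlamBG mutant and 195.9 CPM in its WT, at 7.01 CPM in the FlamKG mutant and 54.9 CPM in its WT, and at 12.2 CPM in the FPSE1 mutant and 121.9 CPM in its WT. In the other lines the mutant held 55.3% (FITS), 123.6% (FPSE2A) and 76.9% (FPSE2B) of the flam level of its WT. The part of flam in the levels of the replication genes was not tested.

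**Figure D2:**
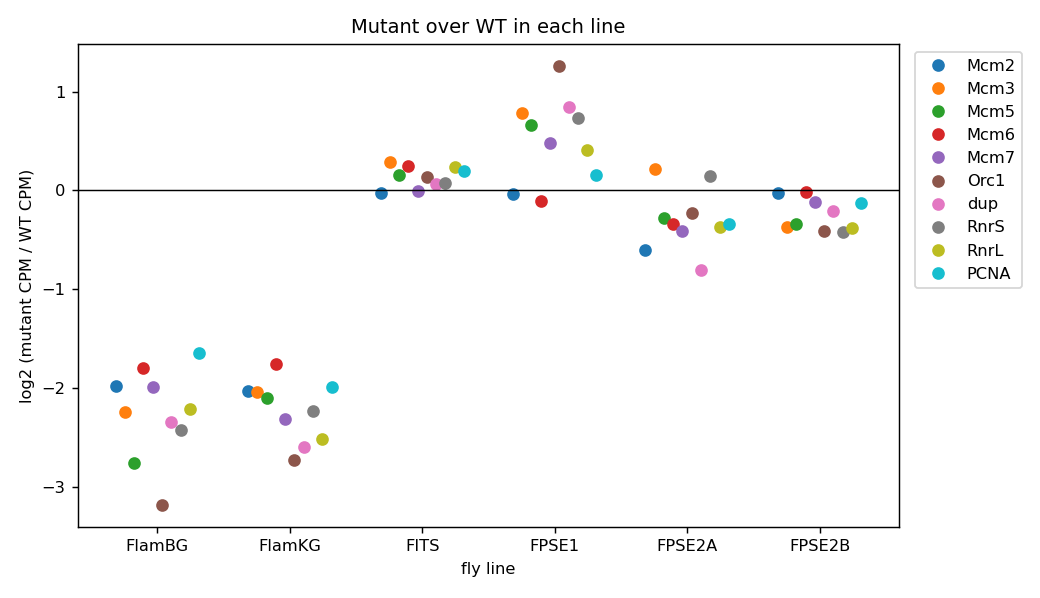
Log2 of mutant CPM over WT CPM (vertical axis) for the 10 genes in each of the 6 fly lines, 1 point a gene, with 0 as no difference. FlamBG and FlamKG lie apart from the rest with medians of −2.23 and −2.17, and FPSE1 spreads upward to a median of 0.57.

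Other genes of replication moved alike in FlamBG and FlamKG, where 31.4% of all genes tested were called lower and 24.1% higher. Of 18 further origin and helicase genes, 17 were lower and 0 higher, with a median log2 change of −2.05, among them the initiation factor Mcm10 at −2.39, the origin subunit Orc5 at −2.14 and dpa at −2.11. Of 19 fork genes, 18 were lower and 0 higher (median −1.71), including the polymerase alpha subunit DNApol-alpha60 at −2.61 and the clamp loader gene RfC3 at −2.06. All 6 nucleotide genes were lower (median −1.70), such as dUTPase, which removes dUTP, at −2.11 and thymidylate synthase (Ts) at −2.02. Of 10 genes that control entry into S phase, 9 were lower and 0 higher (median −1.64), with Cyclin E (CycE), the driver of S phase entry, at −2.64 and its inhibitor dap at −1.88. All 4 chromatin assembly genes were lower (median −2.15), with the histone chaperone asf1 at −2.19. In the other 4 lines 0 genes of these 5 lists were called, and their medians lay between −0.05 and 0.14.

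Markers of other cells moved with these libraries. Muscle markers summed to 7588 CPM in the FlamBG mutant and 961.5 CPM in its WT, and to 5945 CPM in the FlamKG mutant and 2311 CPM in its WT, against 1345 to 5423 CPM in the other mutants and 1579 to 5372 CPM in the other WT libraries. In the FlamBG and FlamKG fit, 9 of 10 muscle markers were called higher and 0 lower (median 2.43), against 24.1% of all genes called higher. Hemocyte and fat body markers were called higher for 6 of 10 and lower for 0, and their sum was 4590 CPM in the FlamBG mutant and 618.5 CPM in its WT, and 4821 CPM in the FlamKG mutant and 1775 CPM in its WT. Germline markers were lower for 8 of 10 and higher for 0 (median −1.26), against 31.4% of all genes called lower. Their sums were 1939 CPM in the FlamBG mutant and 6870 CPM in its WT, and 955.7 CPM in the FlamKG mutant and 3273 CPM in its WT. The 8 included nos at −2.70, the germ plasm organiser osk at −2.24, bgcn at −1.47, ovo at −1.32 and vas, a helicase of germ plasm, at −0.83. Of 7 somatic gonad markers, 3 were lower (flam at −2.45, tj at −1.75 and the adhesion protein Fas3 at −0.95) and 2 higher (the Hedgehog receptor ptc at 2.17 and the ligand Wnt4 at 2.07). Vm26Aa, a vitelline membrane gene outside these lists, stood at 6.36 CPM in the FlamBG mutant and 329.5 CPM in its WT. In FlamKG it stood at 3.41 CPM in the mutant and 3610 CPM in WT, against 619 to 2049 CPM in the other mutants. The part of cell makeup in the fall was not tested, and in bulk RNA fewer cells of a type and less RNA per cell cannot be told apart.

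WT ovaries differed among themselves by gene. Mcm3, Mcm5, Orc1 and RnrS were highest of the 6 WT libraries in FlamBG, at 425.2, 338.7, 237.9 and 1436 CPM. Mcm2 and Mcm7 were lowest in that same library, at 95.1 and 99.5 CPM. The FlamBG WT library also held the most signal of nos, a translational repressor of the germ line, at 3409 CPM against 281.0 to 1841 CPM in the other WT libraries. The 10 genes therefore did not scale together between WT ovaries, whereas in the FlamBG and FlamKG mutants all were low.

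In OSS cells the question was whether siRNA against Traffic jam, Piwi or Ci moved these genes. Traffic jam (tj) is a transcription factor of somatic gonad cells, Piwi a nuclear piRNA effector, and Ci the transcription factor of Hedgehog signalling. Each siRNA was followed by a lower level of its target. tj averaged 460.3 ± 210.3 CPM in siTj and 1449 ± 507.0 CPM in siGFP, piwi 88.3 ± 46.9 CPM in siPiwi and 761.3 ± 125.4 CPM in siGFP, and ci 58.6 ± 15.5 CPM in siCi and 140.3 ± 36.6 CPM in siGFP (SD, n = 3 each). None of these falls was called in edgeR unless libraries were paired by number, and then only that of tj (adjusted p = 0.0198). The targets did not move separately. In siTj cells piwi averaged 200.9 ± 100.2 CPM and ci 277.7 ± 145.0 CPM, and in siPiwi cells tj averaged 937.0 ± 619.7 CPM.

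After siTj all 10 replication genes had a negative log2 change, but 0 of 10 passed the test when libraries were not paired by number. PCNA, the clamp, showed the largest difference of the 10. It stood at 281.5, 146.5 and 287.9 CPM in siTj libraries 1, 2 and 3, and at 880.1, 383.3 and 346.1 CPM in siGFP libraries 1, 2 and 3. The value of siGFP library 1 lay far above the rest. The change was −1.17 (SE 0.46, adjusted p = 0.579, edgeR) unpaired and −1.11 (SE 0.27, adjusted p = 0.0478) with the replicate number as a block, which made PCNA the only member called. Of all 10724 genes tested, 0.0466% were called lower unpaired and 1.45% with the block. Unpaired DESeq2 called 211 genes and 0 members. With the block and 1 library left out, PCNA kept its call only without siGFP library 3 (adjusted p = 0.024) or siTj library 3 (0.0378), and lost it without siGFP library 1, siGFP library 2, siTj library 1 or siTj library 2.

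Among the helicase genes, Mcm7 stood at 128.0, 70.3 and 163.8 CPM in siTj libraries 1, 2 and 3, and at 235.5, 196.4 and 183.7 CPM in siGFP libraries. The change of −0.77 (SE 0.40, adjusted p = 0.769, edgeR) did not pass, nor did the paired one of −0.86 (SE 0.28, adjusted p = 0.118). Mcm6 stood at 211.1, 65.1 and 235.5 CPM in siTj libraries and 310.5, 274.5 and 267.8 CPM in siGFP libraries, with a change of −0.74 (SE 0.49, adjusted p = 0.782, edgeR). Mcm5 stood at 123.4, 42.3 and 145.5 CPM in siTj libraries and 162.7, 158.0 and 172.7 CPM in siGFP libraries, a change of −0.67 (SE 0.49). Library 2 was the lowest siTj value of every member.

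The licensing genes stood closest to the control. Orc1 averaged 35.6 ± 16.9 CPM in siTj and 38.3 ± 3.24 CPM in siGFP, and dup 85.6 ± 42.7 CPM in siTj and 95.2 ± 20.2 CPM in siGFP (SD, n = 3 each). Their siTj changes were −0.11 (SE 0.37) and −0.16 (SE 0.37), and both turned positive without siTj library 2. RnrL averaged 398.5 ± 151.7 CPM in siTj and 485.5 ± 118.5 CPM in siGFP, and RnrS 123.3 ± 47.1 CPM in siTj and 173.1 ± 65.9 CPM in siGFP. Over the 10 genes the median change was −0.65 unpaired and −0.77 paired, against 0.08 and 0.02 over all genes tested.

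**Figure D3:**
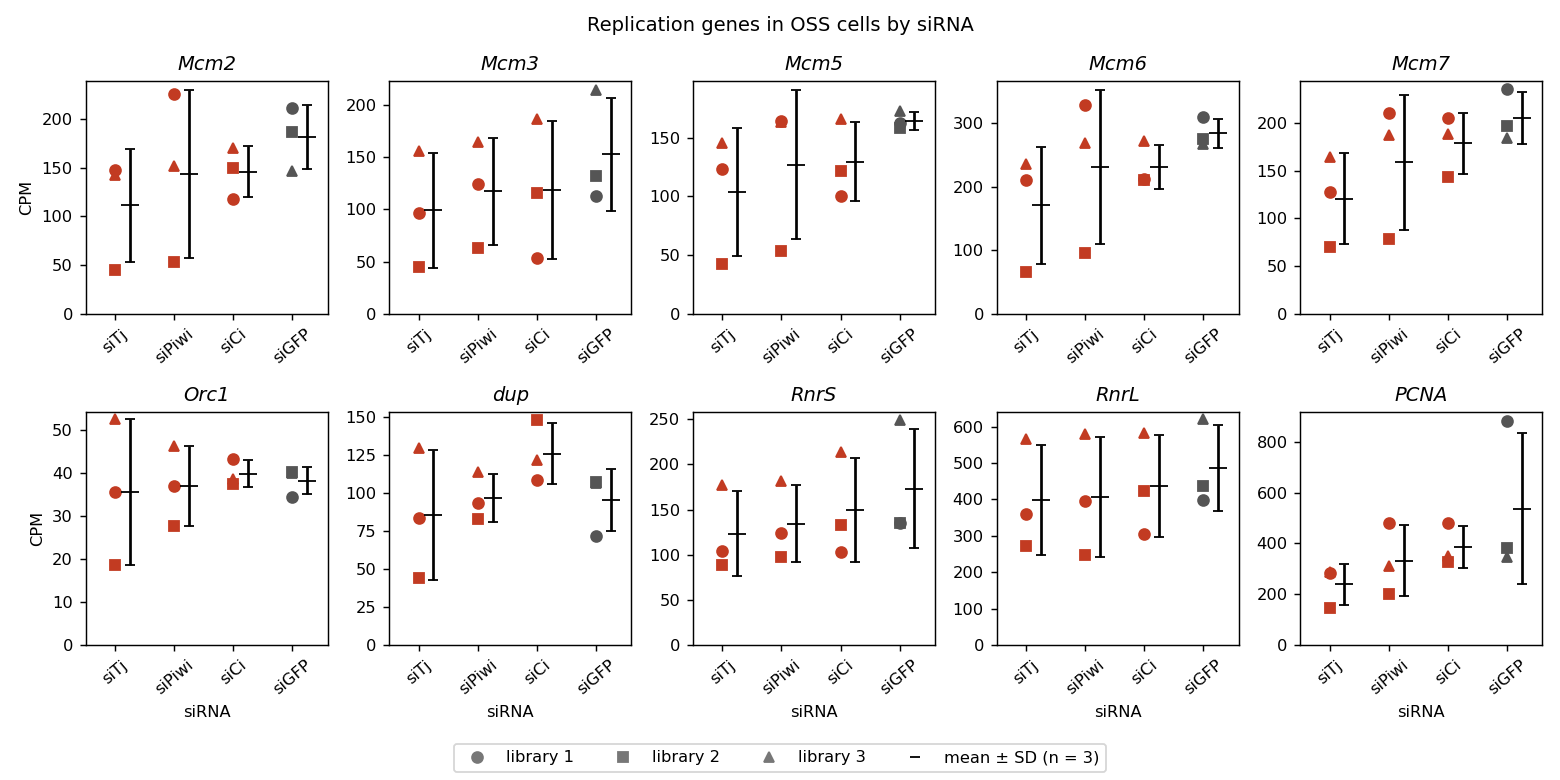
CPM of each gene (vertical axes, from 0) in OSS cells given siTj, siPiwi, siCi or siGFP, with 1 symbol for each library number and the mean ± SD of 3 libraries beside them. Squares, library 2, sit lowest in siTj for all 10 genes and in siPiwi for all 10, while siGFP library 1 stands alone in PCNA at 880.1 CPM.

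After siPiwi and siCi no member was called. In siPiwi the 10 changes ran from −0.70 to 0.02, with a median of −0.35, and in siCi from −0.48 to 0.40 (dup), with a median of −0.25. dup stood at 108.2, 147.7 and 121.4 CPM in siCi libraries and 71.9, 107.3 and 106.4 CPM in siGFP libraries, without a call. Over all genes edgeR called 0 (0%) after siPiwi and 0 (0%) after siCi, paired or not, with 63 genes (siPiwi) and 83 (siCi) below 0.05 before adjustment in the unpaired fit, and 243 and 412 in the paired fit. Unpaired DESeq2 called 2 after each of these siRNAs, and the count over all settings reached 7 after siPiwi and 12 after siCi. Directly compared, siTj differed from siPiwi and from siCi in 0 of 10 genes, with medians of −0.27 and −0.36. For siTj over siPiwi 0% of all genes were called unpaired, with 353 below 0.05 before adjustment and 80 calls in DESeq2, and 0.681% were called paired. For siTj over siCi it was 0.00932% unpaired, with 117 calls in unpaired DESeq2, and 1.45% paired. The 3 knockdowns share the siGFP libraries, so their changes are not independent of each other.

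Libraries also differed by their number. In the paired fit the replicate number was called for 5 of 10 genes, Mcm3, Mcm7, RnrS, RnrL and PCNA, with adjusted p of 0.00429 (RnrS) to 0.0442 (Mcm7) in edgeR. The share over all genes was 49.4%, near that of the members. RnrS was 0.80 higher on the log2 scale in libraries numbered 3 than in those numbered 1, and PCNA 0.59 lower. The summed CPM of the 10 genes was 836.1 in siTj library 2 and 1002 in siPiwi library 2, against 1569 to 2553 in the other 10 OSS libraries. These same 2 libraries had 9.27% and 12.4% antisense reads, against 4.07% to 5.08% elsewhere. Mhc, a muscle myosin, stood at 63.0 and 51.1 CPM, against 1.13 to 48.6 CPM elsewhere. By sum the 10 muscle markers did not stand out there, at 850.1 CPM in siTj library 2 and 851.1 CPM in siPiwi library 2. Their sums elsewhere were 571.9 to 1429 CPM. After siTj 8 of 10 had a positive unpaired change, with a median of 2.07 and 0 called. Hml, a hemocyte marker, was highest in these same 2 libraries, at 33.1 and 47.1 CPM against 0.5 to 23.5 CPM elsewhere. So was nos, at 1.35 and 2.03 CPM against 0 to 0.207 CPM. Germline markers did not stand out by sum, at 349.1 and 368.9 CPM against 242.1 to 608.7 CPM. Heat shock genes were called in 0 of 10 cases after siTj in either fit, with a median change of 3.71 unpaired and 2.67 with the block. They summed to 23270 CPM in siTj library 2 and 15990 CPM in siPiwi library 2, against 6425 to 19770 CPM elsewhere. Of 7 somatic gonad markers, tj among them, 3 had a positive and 4 a negative change after siTj, and 0 were called unpaired. With the block 3 were called lower, flam at −2.03, tj at −1.72 and fs(1)Yb at −1.70, against 1.45% of all genes. The part of these signals in the siTj values was not tested. Without both libraries the unpaired fit still called 0 of 10.

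Of the 57 other replication genes in the 5 lists, 0 were called after siTj unpaired, and 1, dUTPase, was lower with the block at −0.97 (SE 0.23, adjusted p = 0.0399, edgeR), where 1.45% of all genes were called lower. Medians were −0.59 for 18 origin and helicase genes, −0.51 for 19 fork genes, −0.67 for 6 nucleotide genes, −0.48 for 10 S phase control genes and −0.39 for 4 chromatin assembly genes unpaired. All 5 medians were below the 0.08 of all genes.

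Some of the 10 genes differed in level between OSS cells and ovaries. On a common scale over 3 siGFP and 6 WT ovary libraries, Mcm6 and PCNA were higher in siGFP OSS cells and Orc1, RnrS and dup were lower. The 2 genes called higher compare with 19.5% of 11753 genes tested, and the 3 called lower with 23.9%. Both counts were near the share over all genes, so the number of calls does not set the 10 genes apart. Mcm6 spanned 273.1 to 283.0 CPM in siGFP cells and 88.5 to 146.2 CPM in WT ovaries, a log2 change of 1.28 (SE 0.22, adjusted p = 0.000769, edgeR). PCNA spanned 365.8 to 799.9 CPM in siGFP cells and 191.3 to 245.7 CPM in WT ovaries, a change of 1.31 (SE 0.28, adjusted p = 0.00303, edgeR). Neither gene overlapped between the groups, nor did the 3 called lower. How many of all genes also did not overlap was not counted, so this does not set these genes apart.

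Orc1 spanned 31.4 to 42.3 CPM in siGFP cells and 77.7 to 234.9 CPM in WT ovaries, a change of −2.03 (SE 0.38, adjusted p = 0.00137, edgeR). RnrS spanned 122.8 to 263.4 CPM in siGFP cells and 334.5 to 1419 CPM in WT ovaries, a change of −1.85 (SE 0.53, adjusted p = 0.0143, edgeR). Its call was lost without siGFP library 1 (adjusted p = 0.0625 in edgeR) or library 2 (0.0638). dup spanned 65.3 to 112.5 CPM in siGFP cells and 123.3 to 236.1 CPM in WT ovaries, and its change of −0.84 (SE 0.30, adjusted p = 0.0429, edgeR) lost its call in 8 of 9 fits that left out a library (adjusted p = 0.0534 to 0.168), all but that without FITS WT. The other 5 members were not called, with changes of 0.59 for Mcm7, 0.55 for RnrL, 0.23 for Mcm2, −0.38 for Mcm3 and −0.48 for Mcm5. The cells and the tissue differed as their labels say, with germline markers lower in siGFP cells for 8 of 10 and somatic gonad markers higher for 6 of 7. Cell type and source cannot be told apart here.

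Per kilobase of coding sequence, which allows levels of different genes to be set side by side, the order also differed. In siGFP cells PCNA was first at 564 ± 231 CPM per kb, then RnrL at 198 ± 63.0, RnrS at 118 ± 64.9, Mcm6 at 110 ± 1.79, Mcm7 at 92.5 ± 5.03, Mcm5 at 72.6 ± 8.03, Mcm2 at 66.4 ± 7.39, Mcm3 at 60.9 ± 25.2, dup at 36.1 ± 10.5 and Orc1 at 12.9 ± 2.02 (SD, n = 3). RnrS and Mcm6 did not keep that order, with RnrS above Mcm6 in 1 of 3 libraries, and Mcm5 stood above Mcm2, and Mcm2 above Mcm3, in 2 of 3. In WT ovaries RnrS was first at 390 ± 255 CPM per kb, then PCNA at 198 ± 27.8, RnrL at 130 ± 27.2, Mcm5 at 95.4 ± 31.7, Mcm3 at 74.0 ± 43.7, dup at 64.4 ± 18.8, Mcm7 at 57.4 ± 12.9, Mcm2 at 55.5 ± 14.9, Orc1 at 47.1 ± 17.3 and Mcm6 at 42.7 ± 7.73 (SD, n = 6). From Mcm3 down to Mcm6 each gene stood above the next in only 2 to 4 of 6 libraries, so the order among those 6 genes is not settled.

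**Figure D4:**
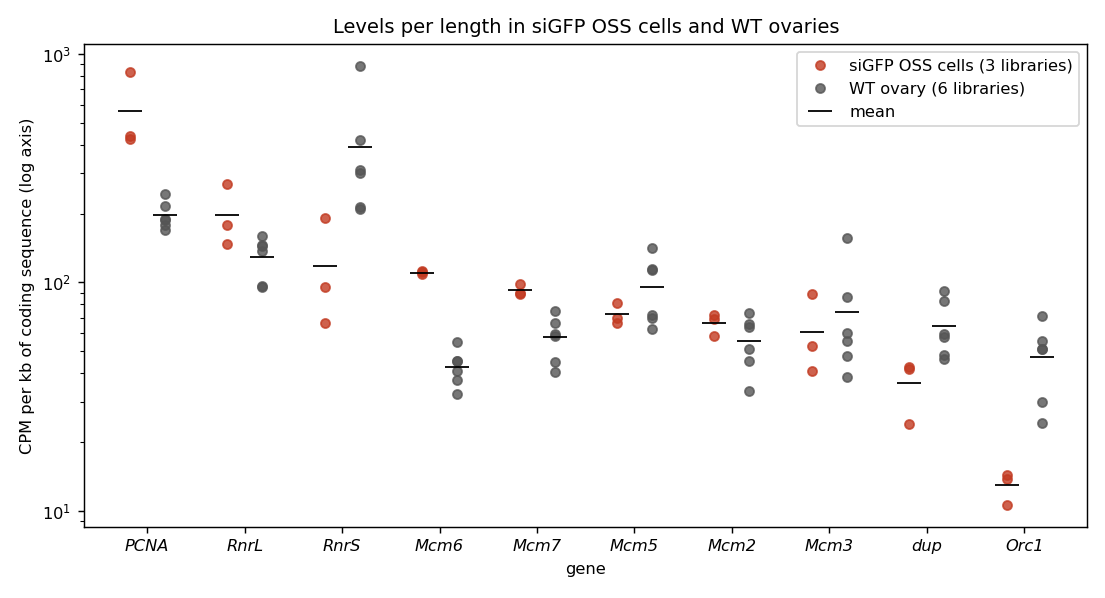
CPM per kb of coding sequence (log axis) of each gene in 3 siGFP OSS libraries and 6 WT ovary libraries, 1 point a library, with the mean as a dash. RnrS and Orc1 are lower in siGFP cells, Mcm6 and PCNA higher, and Mcm6 hardly varies among siGFP libraries (SD 1.79).

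Ratios between 2 genes within a library do not depend on scaling, and 3 ratios were formed after the values were seen, so they are given with no test. How many other pairs of genes would also separate OSS cells from ovaries was not counted. RnrS over RnrL, the small over the large subunit of 1 enzyme, was 0.453 to 0.711 per coding kb in siGFP cells and 1.95 to 6.48 in WT ovaries. In siTj, siPiwi and siCi cells it was 0.460 to 0.595, 0.468 to 0.714 and 0.570 to 0.672, and in mutant ovaries 1.98 to 5.45. The small subunit's RNA was thus below the large subunit's in all 12 OSS libraries and above it in all 12 ovary libraries. FlamBG held the highest mutant value, 5.45, and the highest WT value, 6.48.

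Mcm6 over Mcm5, both subunits of the helicase ring, was 1.37 to 1.68 in siGFP cells and 0.265 to 0.790 in WT ovaries. It was 1.37 to 1.85 over the 9 knockdown libraries and 0.365 to 0.807 in mutant ovaries, so no OSS library overlapped an ovary library. Orc1 over dup was 0.329 to 0.444 in siGFP cells and 0.502 to 1.23 in WT ovaries, and 0.225 to 0.400 in the knockdown libraries and 0.542 to 0.980 in mutant ovaries.

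**Figure D5:**
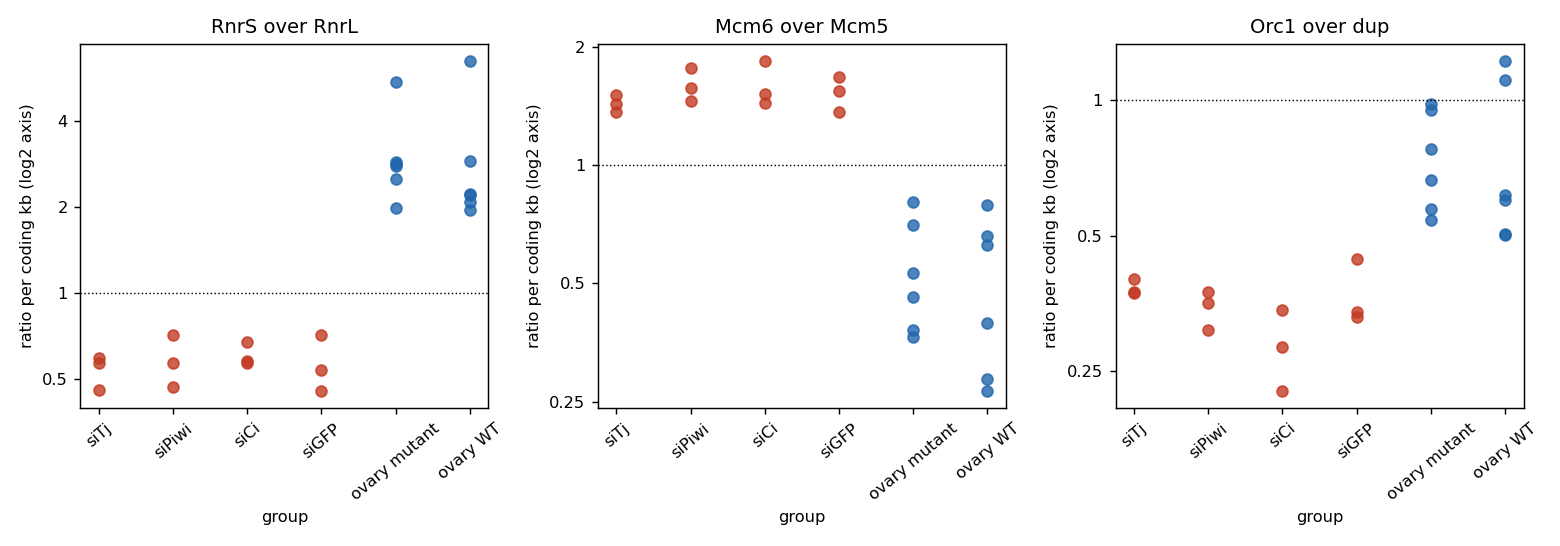
Ratios of reads per coding kb (log2 axes) of RnrS over RnrL, Mcm6 over Mcm5 and Orc1 over dup in each of 24 libraries by group, with a dotted line at 1. OSS groups (left) and ovary groups (right) do not overlap in these panels, whose pairs were chosen after the values were seen. RnrS over RnrL was at most 0.714 in OSS cells and at least 1.95 in ovaries.

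The genes most like the 10 in pattern were ranked by Pearson's r with the mean of the members' standardised log2 CPM, over 12 libraries a tissue, as a description. In OSS cells these were CG15011 (0.985), Taf2 (0.977), Cdk2 (0.977), CG5757 (0.977) and CG13605 (0.976) of 10714 genes. In ovaries they were dpa (0.997), dgt6 (0.991), Nup54 (0.99), cort (0.986) and Asciz (0.986) of 11145 genes. The members' sum was lowest in the FlamBG and FlamKG mutants among ovaries, and in siTj library 2 and siPiwi library 2 among OSS cells. Such libraries weigh on r, so r is not separate from the library differences above. Of 57 other replication genes, 40.4% stood among the 500 genes most like the members in OSS cells and 56.1% in ovaries, where 500 genes are 4.67% and 4.49% of all. Their median r was 0.80 and 0.90, against −0.02 and 0.08 over all genes.

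Chromatin at the 10 starts was read from lists of Cut&Run summits in OSS cells and from 1 list of TJ ChIP peaks. H3K4me3, a mark of active promoters, had a summit within 1000 bp of the start of 10 of 10 genes in siGFP cells, against 36.6% of all 16369 gene starts. It had 10 of 10 in both untreated libraries too, against 38.8% and 36% of all starts. Each of these summits lay downstream of the start, at 92 (dup) to 479 bp (RnrS) over the 3 libraries. The authors' score at the nearest summit was highest at PCNA in all 3, at 69.6 in siGFP cells and 405 and 97.8 in untreated cells, and lowest at Mcm7 in siGFP cells (10.3). Another gene starts within 1000 bp of 6 of the 10, such as RpA-70 at 519 bp from Mcm2, so the nearest gene of a summit there is not always the member.

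In siTj cells 4 of 10 starts had a H3K4me3 summit within 1000 bp (Mcm2, Mcm6, RnrL and PCNA), against 21.1% of all starts. That list held 3134 summits with a median score of 5.26 at gene starts, against 6255 summits and a median of 26.3 in the siGFP list. Of all 5996 starts with a summit in siGFP cells, 56.6% had one in siTj cells, so starts without one in siTj cells were common among all genes. Each siRNA had 1 Cut&Run library, so the difference has no replicate check. H3K9me3, a mark of silent chromatin, had no summit within 1000 bp of any of the 10 starts in siTj, siGFP or either untreated list, against 1.63%, 5.73%, 5.97% and 3.34% of all starts, and none inside the 10 genes. The nearest H3K9me3 summit lay 7164 bp away, upstream of Mcm3.

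TJ peaks came as 1 list of 1987 intervals for the study, with no value for each, and lay within 1000 bp of the start of 1 of 10 genes, against 7.61% of all starts. That gene was Orc1, whose start lies inside a peak. A second peak began 1689 bp downstream of the start of dup, inside the gene. The nearest peak lay 4479 bp (Mcm6) to 67049 bp (RnrL) from the starts of the other 8 genes.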

How the data were processed

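Long RNA tables were deposited with whole-number counts per gene on each strand, per the file headers. The tools named in the submitters' processing notes are DESeq2, FastQC, Bowtie2 and MACS2, with no role or version. No genome build is named in what was used here, and positions matched RefSeq Release 6. The Cut&Run lists of 1 library each hold the authors' deposited summits with a score each, and the TJ list holds positions only. All value columns used were mapped to samples (0 unmapped).

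The members and all gene lists were chosen with earlier results of these data known. Named genes are the 10 members, the siRNA targets, called genes of the other lists (at most 5 each, by p) and the 5 genes most like the members per tissue. Vm26Aa was named after its values were seen. Unique sense counts were tested with edgeR 4.0.16 (filterByExpr, TMM, quasi-likelihood F test) in R 4.3.3, with Benjamini-Hochberg adjustment at 0.05. The SE was taken as the size of the log2 change over the root of its F. The 12 OSS libraries were fitted together, and the paired fit added the replicate number. The numbers were taken to pair the libraries because deviations correlated in all 18 same-number pairs (r 0.22 to 0.9), though the labels do not say what a number shares. Ovaries had the line as a block. DESeq2 1.42.0 and other settings are in the closing text. Levels per kb used coding reads and coding length.

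In simulated counts the unpaired siTj test of 9998 genes called 2% of genes made to differ 2-fold, 42% of those made to differ 4-fold, and 6 others, and the paired test of 10175 genes called 18%, 90% and 9 others. The FlamBG and FlamKG test of 10714 genes called 2%, 70% and 7, and the test of siGFP cells against WT ovaries, of 11123 genes, called 6%, 68% and 10.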

Additional observations from a re-analysis of the deposited data

Results flagged for a closer look

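RnrS in the FlamBG WT library, at 1436 CPM, lay far from the other 5 WT ovary libraries by Dixon's test, the only flag among 30 tests of the members, where chance gives about 1 in 20. The mutant effect differed between FlamBG and FlamKG and the other 4 lines for all 10 genes in a test of the difference itself (edgeR). On the log2 scale it was −1.83 for Mcm2, −2.37 for Mcm3, −2.48 for Mcm5, −1.73 for Mcm6, −2.14 for Mcm7, −3.14 for Orc1, −2.45 for dup, −2.47 for RnrS, −2.34 for RnrL and −1.79 for PCNA. The lines were grouped after their values were seen.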

How the results depend on the processing

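The 10 calls in FlamBG and FlamKG, and the 10 for their difference from the other lines, held in the 11 alternatives run for each, among them leaving out either line, with member medians of −2.27 to −2.11 and −2.47 to −2.08. In siTj over siGFP the count of members called was 0, but 1 with the replicate block and 2 (Mcm7, PCNA) in DESeq2 with the replicate block. With the block and 1 library left out it was 0 to 1 (DESeq2 with the block and these left-out fits were chosen after seeing the data). Orc1 and dup turned positive in siTj without siTj library 2 (0.12 and 0.07, with the block 0.03 and 0.10) and without siPiwi 2 and siTj 2 (0.12 and 0.078, with the block 0.10 and 0.18), each uncalled, their values with 1 siTj or siGFP library left out spanning −0.647 to 0.12 for Orc1 and −0.742 to 0.10 for dup, and the cause was not tested. Without siPiwi library 1 the paired member median in siPiwi was −0.91. In siGFP cells over WT ovaries the count of members called was 5, and 3 to 5 with 1 library left out, the lowest being without siGFP library 1 or 2. Mcm3 ran from −0.766 without siGFP library 3 to 0.06 without FlamBG WT, uncalled. Members with a TJ peak at the start numbered 1, and 2 within 2000 bp. Counts over all genes varied more: siTj over siGFP 5, and 1 to 1228 by setting, siTj over siPiwi 0 to 477, and siTj over siCi 0 to 489 with libraries left out. Pooled mutants over WT gave 0 genes, and 357 in DESeq2. Leaving out FlamKG lowered the calls over all genes to 4062, against 6193. Fitting the ovaries with no replicate block for the line called 0 members.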
